A study of Homo sapiens with 36 samples.

Results

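22Rv1 is an established human prostate carcinoma cell line, derived from a xenograft that relapsed after androgen withdrawal. The comparison described here is between 22Rv1 cells kept at 0.2% O2 for 24 h and 22Rv1 cells kept in normoxia, where both groups had received vorinostat at 1 µM for 24 h. Vorinostat is a hydroxamic acid that inhibits histone deacetylases, the enzymes that remove acetyl groups from histones. The groups were chosen by the sample titles and hold 3 bead arrays each, so 6 of the 36 arrays of the study. The remaining arrays cover 22Rv1 with solvent in normoxia and hypoxia and the same 4 conditions in DU145 and PC-3, also prostate carcinoma lines, with 3 arrays in each of 12 groups. RNA was taken before any irradiation, and the labels call 22Rv1 and PC-3 radiation sensitive and DU145 radiation resistant. All drug-treated groups carried the drug at the same dose and time, so nothing in the hypoxia contrast measures the drug itself. The labels do not say whether the drug and the low oxygen were given over the same 24 h, nor whether the arrays of a group came from separate cultures. The p-values below therefore measure a spread between arrays that may be technical. Unless said otherwise, this spread is pooled within groups over all 12 groups, DU145, PC-3 and solvent included.

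Cells sense oxygen through prolyl hydroxylases that mark the alpha subunits of the hypoxia-inducible factors (HIF) for destruction. When oxygen is scarce the subunits persist, pair with ARNT, and bind a short core motif near genes for glycolysis, glucose uptake, angiogenesis and mitochondrial turnover. HIF activity is therefore set mainly on protein, and transcripts of its target genes are a common readout. Proliferation is controlled on another axis, in which E2F transcription factors switch on the replication and nucleotide-synthesis genes that cells need to enter S phase.

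The promoters of 3 strongly induced genes and of 1 strongly reduced gene are shown because the comparison turns on these gene groups. They were picked among called list members with large changes whose window held the searched motif. Genes on the chromosome that carries STC1 were left out of this choice. The presence of a match in the windows shown was therefore fixed by the choice. Sequences are from RefSeq on GRCh38.p14 and run from 250 bases before to 50 bases after the annotated start, 5′ to 3′ on the gene's strand. Capitals in the induced genes mark the HIF core, searched as ACGTG and GCGTG on both strands. ANKRD37, an ankyrin-repeat protein known as a HIF target, has its window at chr4:185396591-185396890 on the plus strand, where 2 of its 3 matches overlap as a palindrome. PFKFB4, which sets the level of a glycolytic activator, has its window at chr3:48556754-48557053 on the minus strand. DDIT4, which restrains mTORC1 signalling, has its window at chr10:72273674-72273973 on the plus strand and holds 4 matches.
ANKRD37: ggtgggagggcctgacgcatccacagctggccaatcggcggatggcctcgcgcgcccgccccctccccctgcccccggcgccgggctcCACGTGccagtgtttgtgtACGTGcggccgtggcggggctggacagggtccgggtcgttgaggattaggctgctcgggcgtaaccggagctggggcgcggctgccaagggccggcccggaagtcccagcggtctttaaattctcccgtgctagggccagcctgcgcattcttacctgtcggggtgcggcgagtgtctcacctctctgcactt
PFKFB4: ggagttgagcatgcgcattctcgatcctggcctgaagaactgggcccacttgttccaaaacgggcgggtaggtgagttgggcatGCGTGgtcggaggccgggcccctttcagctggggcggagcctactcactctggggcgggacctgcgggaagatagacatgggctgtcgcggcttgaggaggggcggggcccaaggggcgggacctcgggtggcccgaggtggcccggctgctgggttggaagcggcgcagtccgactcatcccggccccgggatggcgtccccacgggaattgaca
DDIT4: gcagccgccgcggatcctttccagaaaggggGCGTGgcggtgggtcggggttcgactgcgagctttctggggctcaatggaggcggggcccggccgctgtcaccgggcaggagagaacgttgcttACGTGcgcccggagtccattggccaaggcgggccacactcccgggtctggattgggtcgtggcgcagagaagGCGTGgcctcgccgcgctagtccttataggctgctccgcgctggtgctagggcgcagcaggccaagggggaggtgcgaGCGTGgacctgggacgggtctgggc
MCM2, a subunit of the replicative helicase, has its window at chr3:127598161-127598460 on the plus strand, and capitals mark E2F words, searched as TTTCCCGC, TTTCGCGC, TTTGCCGC and TTTGGCGC on both strands. It was chosen after its values were seen.
MCM2: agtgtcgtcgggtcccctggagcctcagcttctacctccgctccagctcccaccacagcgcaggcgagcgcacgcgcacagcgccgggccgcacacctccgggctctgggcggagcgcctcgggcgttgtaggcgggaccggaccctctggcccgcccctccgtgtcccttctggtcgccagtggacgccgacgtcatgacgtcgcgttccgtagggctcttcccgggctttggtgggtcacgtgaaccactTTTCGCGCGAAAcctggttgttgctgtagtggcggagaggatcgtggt
Of 9898 tested genes with a promoter in the table, 62.8% held the HIF core and 5.44% held an E2F word. Genes called higher in the lists of secreted factors, glycolysis, switch kinases, acid handling and further HIF targets held the HIF core in 32 of 38 promoters (84.2%) with an entry. The core was also in 19 of 25 promoters (76.0%) of called DNA replication genes, the MCM2 window included, where it is not capitalised. An E2F word stood in 13 of 25 promoters (52.0%) of called DNA replication genes. A match describes the letters in the window and is not evidence of binding.

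Each array had 15989 to 16803 probes above background (33.8% to 35.5% of 47323), and array profiles correlated at 0.992 to 0.995 within the drug-treated 22Rv1 groups and at 0.977 to 0.983 between them. Of the 7 luminal prostate markers with a probe, 6 were above background on all 6 arrays (KLK2, HOXB13, TMPRSS2, FOLH1, KRT8 and KRT18), KLK3 was on none, and no luminal marker was called by limma (2 at an unadjusted p under 0.05). Their summed intensity was 6574 to 7340 in hypoxia and 5735 to 5993 in normoxia, and its part in the results was not tested. Defining markers of endothelium (PECAM1, CDH5, VWF and KDR) and the leukocyte markers PTPRC and CD3E were above background on 0 of the 6 arrays, and CD14, LYZ and CD79A on 1 hypoxia array each. Among fibroblast markers, COL1A1 was above background on 2 hypoxia and 2 normoxia arrays, and LUM on 1 hypoxia and 3 normoxia arrays. COL1A2, COL3A1, DCN and THY1 were on none. Summed intensity of the 3 tested members (COL1A1, COL3A1 and LUM) was 89.0 to 105 in hypoxia and 97.1 to 117 in normoxia.

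Hypoxia changed a broad set of transcripts in drug-treated 22Rv1 cells: genes of the HIF response rose, PFKFB4 by 13.6-fold, and genes of DNA replication fell, with MCM5 4.98-fold lower. Values are log2 normalized bead intensities, and a change is the hypoxia mean minus the normoxia mean, given ± its SE. A gene was called when the limma test adjusted by the Benjamini-Hochberg method over 12360 genes gave p below 0.05. By this rule 2695 genes (21.8%) were called, 1190 higher in hypoxia (9.63%) and 1505 lower (12.2%). Changes of at least 1 on the log2 scale were called for 255 genes (2.06%), 193 that rose (1.56%) and 62 that fell (0.502%). The 3 hypoxia arrays did not overlap the 3 normoxia arrays for 5421 genes (43.9%). The median change over all genes was −0.02. Scaling each array to its median in place of quantile normalization moved that median to −0.18 and the split to 493 higher and 2764 lower, so that 15.1% instead of 44.2% of calls were higher. No called gene named by rule below changed direction under any of the alternatives run. The plot of change against mean level shows both tails.

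**Figure D1:**
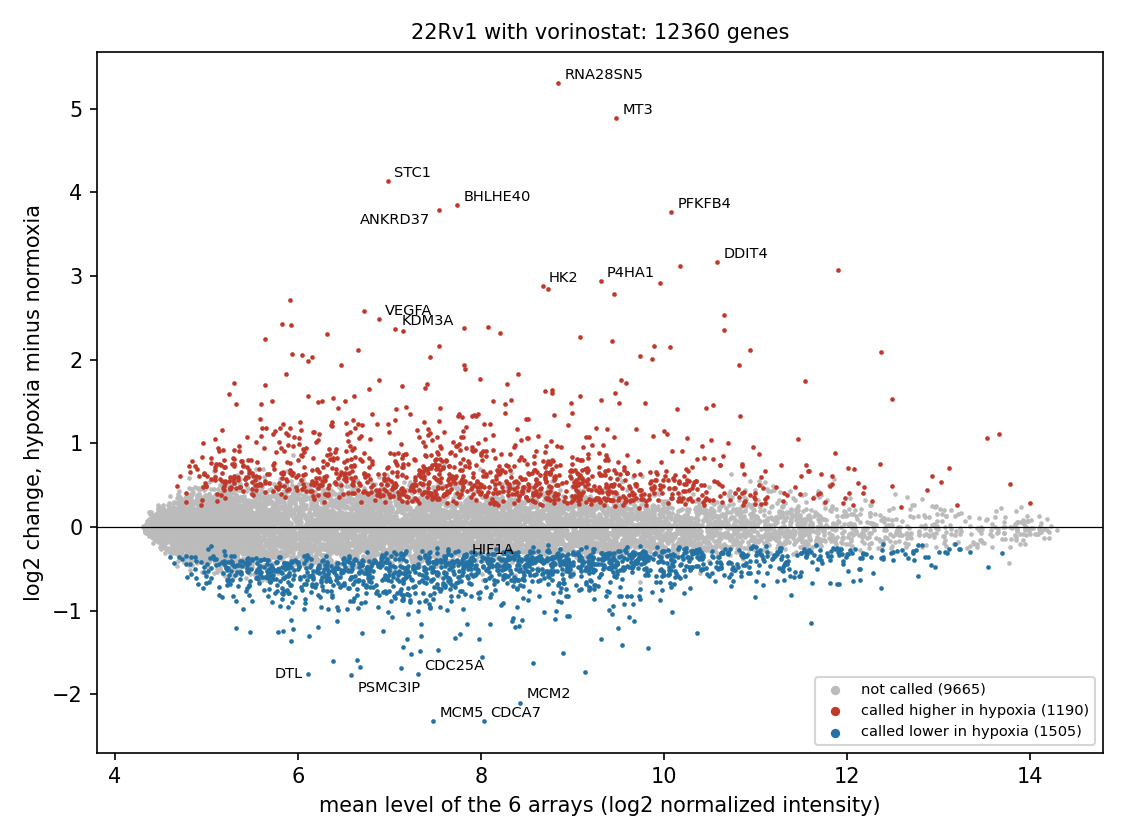
Log2 change in hypoxia (vertical) against the mean level of the 6 drug-treated 22Rv1 arrays (horizontal, log2 normalized intensity) for 12360 genes. Red points are the 1190 genes called higher, blue points the 1505 called lower. The named rises reach 5.30 and the named falls −2.32, and HIF1A lies near the centre.

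The transcripts of the oxygen sensing machinery itself changed less than those of its targets. Of 14 genes tested for HIF subunits and oxygen sensors, 6 were called higher, where 9.63% of all genes were, and 0 lower. Their median change of 0.14 became −0.11 with median scaling. HIF1A, the main alpha subunit, read 7.73, 7.69 and 7.52 in hypoxia and 7.98, 7.99 and 8.08 in normoxia. Its hypoxia arrays lay below all normoxia arrays, yet the change of −0.37 ± 0.22 was not called (limma adjusted p = 0.239). It was called only when the 6 arrays were fitted alone (adjusted p = 0.0182). EPAS1, the second alpha subunit, changed by −0.31 ± 0.19 and was not called either (limma adjusted p = 0.279). EGLN1, the prolyl hydroxylase that inactivates HIF alpha when oxygen is present, read 8.12, 8.33 and 8.37 in hypoxia against 6.56, 6.48 and 6.63 in normoxia. The groups were well apart and EGLN1 rose by 1.71 ± 0.11 (limma adjusted p = 2.06e-13). EP300, a coactivator that HIF recruits, rose by 1.11 ± 0.24. EGLN3, a further prolyl hydroxylase, was above background on 0 of 3 normoxia arrays and 1 of 3 hypoxia arrays, so its called rise stands only for at least 1.02-fold. Bounds of this kind divide the bright group's mean by the higher of the dim probe's own signal and the lowest signal well above background.

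Among classical HIF targets the rise was nearly complete, with 18 of 21 tested genes called higher and 0 lower. Their median change was 1.5, against −0.02 over all genes, of which 9.63% were called higher. ANKRD37 read 9.42, 9.51 and 9.38 in hypoxia and 5.52, 5.65 and 5.77 in normoxia. All hypoxia arrays stood far above normoxia, for a change of 3.79 ± 0.19 or 13.8-fold (limma adjusted p = 1.92e-15). DDIT4 read 12.17, 12.23 and 12.10 in hypoxia and 9.02, 9.14 and 8.83 in normoxia. It was already bright before hypoxia and rose by 3.17 ± 0.17, a 9.0-fold change (limma adjusted p = 1.31e-14). NDRG1, a stress-induced protein linked to differentiation, read 10.04, 10.37 and 10.07 in hypoxia against 7.34, 7.38 and 7.23, and rose by 2.84 ± 0.17. The 3 members not called had changes between −0.15 and 0.34.

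Secreted factors that hypoxic cells use to signal to vessels and neighbours ranged from no call to the rise of STC1. Of 18 tested, 11 were called higher, where 9.63% of all genes were, and 0 lower. The median change was 0.51, or 0.61 when genes below background in a group were set at their bounds. Median scaling left 7 called higher and a median of 0.30. STC1, a glycoprotein hormone involved in calcium and phosphate balance, read 9.31, 8.99 and 8.86 in hypoxia and 5.09, 4.87 and 4.78 in normoxia. It was not above background on any normoxia array, so its measured change of 4.14 ± 0.16 stands for a rise of at least 14.4-fold (limma adjusted p = 3.79e-18). ADM, the vasodilator peptide adrenomedullin, read 11.45, 11.49 and 11.29 in hypoxia against 8.56, 8.52 and 8.41 in normoxia. Hypoxia arrays were uniformly high, and ADM rose by 2.91 ± 0.17 (limma adjusted p = 6.99e-14). VEGFA, the principal angiogenic growth factor, read 8.21, 8.20 and 7.97 in hypoxia and 5.71, 5.54 and 5.67 in normoxia. The groups did not overlap and VEGFA rose by 2.48 ± 0.19, a 5.59-fold change (limma adjusted p = 1.25e-11).

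Genes of glucose use rose in part. In the glycolysis list 13 of 15 genes were called higher and 0 lower, with a median change of 0.89. HK2, the inducible hexokinase that traps glucose in the cell, read 10.39, 10.02 and 9.94 in hypoxia and 7.31, 7.29 and 7.10 in normoxia. Its lowest hypoxia array was far above the highest normoxia array, and the change was 2.88 ± 0.16 (limma adjusted p = 2.44e-14). ALDOC, a fructose-bisphosphate aldolase, rose by 2.09 ± 0.18, and GPI, which interconverts glucose and fructose phosphates, by 1.75 ± 0.11. The smallest called change in the list was 0.29, for TPI1, and GAPDH, often used as a reference gene, changed by −0.08 and was not called (both were chosen after their values were seen). In glucose and lactate transport 3 of 6 genes were called higher, where 9.63% of all genes were. SLC2A1, the basal glucose transporter GLUT1, read 10.23, 10.25 and 10.16 in hypoxia and 8.15, 8.0 and 7.69 in normoxia. Normoxia arrays varied more than hypoxia arrays but did not reach them, and SLC2A1 rose by 2.27 ± 0.13 (limma adjusted p = 1.53e-14). LDHA, which reduces pyruvate to lactate, was among the brightest probes before hypoxia and still rose by 1.11 ± 0.07. SLC2A3, the neuronal-type glucose transporter GLUT3, was above background on 0 of 3 normoxia and 2 of 3 hypoxia arrays, for a rise of at least 1.20-fold.

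The list of switch kinases that steer carbon through glycolysis, and their partners, split sharply. Of 8 tested, 3 were called higher and 5 were not called, among them PDP1, a phosphatase, and PDHA1, a dehydrogenase subunit, which are not kinases. PFKFB4 read 12.08, 11.97 and 11.85 in hypoxia and 8.27, 8.20 and 8.12 in normoxia, with the groups far apart. It rose by 3.77 ± 0.17, or 13.6-fold (limma adjusted p = 5.84e-17). PFKFB3, its paralogue that also makes fructose 2,6-bisphosphate, read 11.79, 11.81 and 11.61 against 8.61, 8.65 and 8.61 and rose by 3.12 ± 0.11. PDK3, a kinase that inhibits pyruvate dehydrogenase, rose by 2.22 ± 0.17. In glycogen metabolism 4 of 7 genes were called higher (2 with median scaling) and 1 lower. GBE1, the glycogen branching enzyme, rose by 2.32 ± 0.13 and GYS1, muscle-type glycogen synthase, by 0.86 ± 0.21, while PYGL, a glycogen phosphorylase, rose by 0.56 ± 0.11, a call lost under 1 alternative. Acid and bicarbonate handling gave 1 call among 6 (0 with median scaling), where 9.63% of all genes were called higher. The call was CA12, a membrane carbonic anhydrase, at 0.52 ± 0.19 (limma adjusted p = 0.0453), and it was lost under 8 alternatives.

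Demethylases and collagen-modifying enzymes, most of them oxygen-dependent, were counted next, where 9.63% of all genes were called higher. Of 15 histone and DNA demethylases, 11 were called higher (8 with median scaling) and 0 lower, with a median change of 0.63. KDM3A, which demethylates histone H3 lysine 9 and is itself a HIF target, read 8.49, 8.24 and 8.02 in hypoxia and 6.07, 5.98 and 5.59 in normoxia. Normoxia arrays were all lower, and KDM3A rose by 2.37 ± 0.17 (limma adjusted p = 2.34e-12). KDM7A rose by 1.93 ± 0.19 and KDM4B by 1.5 ± 0.17, both also histone lysine demethylases. Among collagen hydroxylases and their partners 4 of 9 were called higher, with a median of 0.32 (0.11 with median scaling). P4HA1, a prolyl hydroxylase subunit, read 10.79, 10.85 and 10.71 in hypoxia against 7.96, 7.68 and 7.88. It rose by 2.94 ± 0.13 (limma adjusted p = 3.66e-17). The lysyl hydroxylases PLOD1 and PLOD2, which prepare collagen for cross-linking, rose by 2.53 ± 0.12 and 1.94 ± 0.12.

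Of 14 mitophagy and autophagy genes 3 were called higher and 11 were not called, among them FUNDC1, also a mitophagy receptor, at 0.06 (chosen after its value was seen). BNIP3, a receptor on the outer mitochondrial membrane, read 13.46, 13.40 and 13.45 in hypoxia and 10.30, 10.39 and 10.40 in normoxia. Replicates agreed closely, and BNIP3 rose by 3.08 ± 0.09, or 8.43-fold (limma adjusted p = 6.25e-21). Its relative BNIP3L rose by 2.35 ± 0.08 and ATG9A, a lipid scramblase of the autophagosome, by 0.80 ± 0.15. Genes of the respiratory chain and its assembly gave 0 rises and 5 falls among 32, with a median of −0.08, a share near the 12.2% of all genes called lower. The largest of these were ISCU, the iron-sulfur cluster scaffold, at −0.49 ± 0.10, and TFAM, the mitochondrial DNA packaging factor, at −0.37 ± 0.11, a call lost under 1 alternative. In iron handling 3 of 7 genes were called higher (1 with median scaling), where 9.63% of all genes were, led by FTL, the ferritin light chain, at 0.61 ± 0.09.

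A circadian repressor and 1 metallothionein rose strongly. BHLHE40, a circadian repressor also known as DEC1, read 9.56, 9.81 and 9.64 in hypoxia and 5.82, 5.98 and 5.66 in normoxia. It went from dim to well expressed, with a change of 3.85 ± 0.11 or 14.4-fold (limma adjusted p = 2.44e-21). In its list of 21 clock, MYC and immediate regulators 8 were called higher, where 9.63% of all genes were, and 0 lower. The 8 included CIART, a circadian repressor, at 1.89 ± 0.12 and ZNF395, a zinc finger protein, at 1.71 ± 0.13. MT3, a zinc-binding metallothionein best known from brain, read 11.93, 12.03 and 11.82 in hypoxia and 7.27, 7.01 and 6.84 in normoxia. Its hypoxia arrays were high throughout, and MT3 rose by 4.89 ± 0.19 or 29.7-fold (limma adjusted p = 3.52e-18). Only 1 other of 8 tested metallothioneins was called, MT1X at 0.48 ± 0.17, a call lost under 8 alternatives, and probes of this close gene family can share signal. TXNIP, an inhibitor of thioredoxin that also curbs glucose uptake, rose by 1.46 ± 0.21.

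The largest rise belonged to RNA28SN5, a copy of the 28S ribosomal RNA gene. It read 12.84, 10.65 and 11.01 in hypoxia and 6.21, 5.69 and 6.69 in normoxia, a change of 5.30 ± 1.35 (limma adjusted p = 0.00468). The same probe spanned 4.90 to 12.56 over the 3 arrays of solvent-treated DU145 in normoxia, while solvent-treated 22Rv1 arrays lay between 6.47 and 6.71 in normoxia and between 11.39 and 11.99 in hypoxia. There it rose by 5.04 (limma adjusted p = 0.00771), and in drug-treated PC-3 by 4.16 (limma adjusted p = 0.0369). Ribosomal RNA genes are near-identical copies that the probe cannot separate. Ribosomal protein genes gave 0 calls by limma among 20 tested (2 at an unadjusted p under 0.05), with a median of 0.04. Of the 18 ribosome biogenesis genes 8 were called lower (6 to 12 over all alternatives) and 1 higher, with a median of −0.38. Among all genes 12.2% were called lower and 9.63% higher. NOLC1, a nucleolar phosphoprotein, fell by 0.96 on the log2 scale and NOP16, a nucleolar assembly factor, by 0.74.

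**Figure D2:**
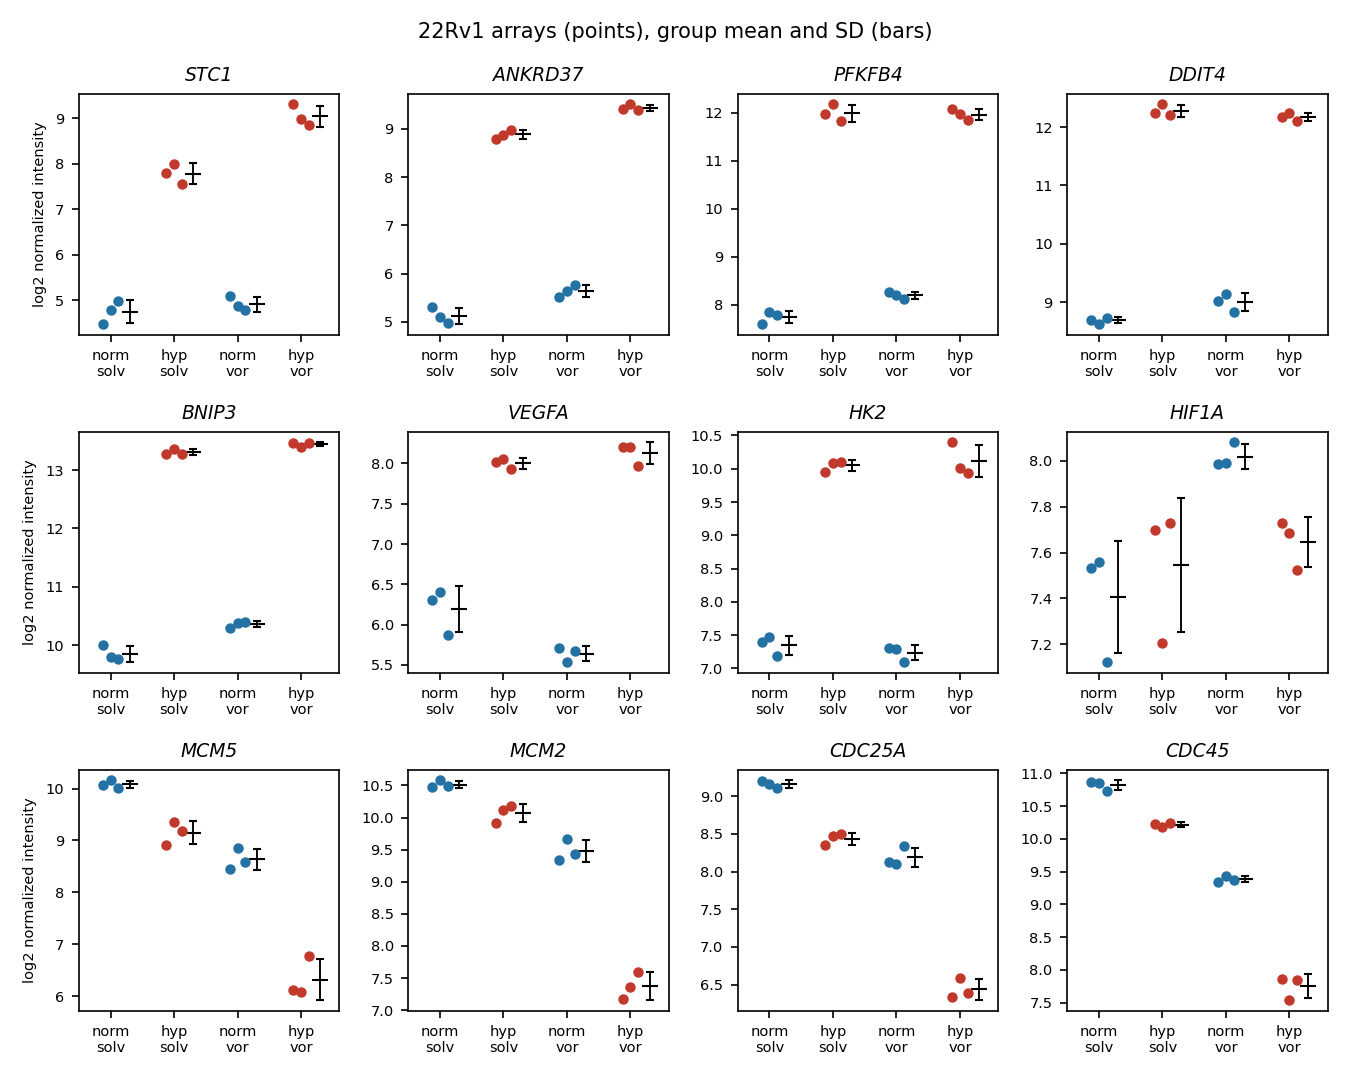
Levels of 12 genes on each of the 12 arrays of 22Rv1 (points, log2 normalized intensity) with the group mean and SD (bars), for normoxia (norm) and hypoxia (hyp) with solvent (solv) or vorinostat (vor). Red points are hypoxia and blue points normoxia, and vertical scales differ between panels. STC1 at 8.86 to 9.31 in hypoxia with drug lies above its solvent arrays at 7.56 to 8.0, and the replication genes of the bottom row are lowest in hypoxia with vorinostat.

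The falls were led by DNA replication. Of 37 genes in this list 31 were called lower and 0 higher, with a median change of −1.10, where 12.2% of all genes were called lower. MCM5, a subunit of the replicative helicase, read 6.11, 6.09 and 6.77 in hypoxia and 8.46, 8.86 and 8.59 in normoxia. The third hypoxia array was higher than its partners but still far below normoxia, and MCM5 fell by 2.32 on the log2 scale ± 0.20, to a level 4.98-fold lower (limma adjusted p = 3.84e-10). MCM2 read 7.17, 7.36 and 7.60 in hypoxia and 9.34, 9.66 and 9.43 in normoxia. Every hypoxia array was well below every normoxia array, and the change was −2.10 ± 0.16 (limma adjusted p = 2.18e-11). GINS2, part of the complex that activates the helicase, read 8.27, 8.22 and 8.32 against 9.85, 10.19 and 9.99, a change of −1.74 ± 0.12. CDC45, which joins MCM and GINS in the active helicase, read 7.87, 7.55 and 7.85 against 9.35, 9.44 and 9.37, a change of −1.63 ± 0.11 (limma adjusted p = 1.07e-12).

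The other genes among the 12 largest falls mostly act beside the fork. CDCA7, which works with a chromatin remodeller in DNA methylation, read 6.80, 7.0 and 6.83 in hypoxia and 9.20, 9.29 and 9.08 in normoxia. Its replicates were tight and the change was −2.32 ± 0.13 (limma adjusted p = 3.28e-14). CDC25A, the phosphatase that releases CDK2 for S-phase entry, read 6.33, 6.59 and 6.39 against 8.13, 8.10 and 8.33, a change of −1.75 ± 0.13. DTL, the receptor by which a ubiquitin ligase removes the licensing factor CDT1, changed by −1.75 ± 0.13, and 2 of its 3 hypoxia arrays were above background. MCM10 and GINS4, both replication initiation factors, changed by −1.69 ± 0.14 and −1.67 ± 0.30. CHAF1B, a subunit of the histone chaperone that follows the fork, changed by −1.59 ± 0.15. PSMC3IP, which acts in meiotic recombination, changed by −1.77 ± 0.18. In this bulk measurement fewer cells in S phase and less of these transcripts per cell cannot be told apart, and no cell cycle measurement was used here.

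Repair genes fell as well, where 12.2% of all genes were called lower. In homologous recombination and the Fanconi pathway 12 of 16 genes were called lower and 0 higher, with a median of −0.74. EXO1, the exonuclease that resects broken ends, read 5.86, 5.53 and 5.37 in hypoxia and 7.14, 7.21 and 7.21 in normoxia. Hypoxia arrays were all lower, and EXO1 changed by −1.60 ± 0.11 (limma adjusted p = 1.58e-12). XRCC3, a strand-break repair protein, changed by −1.31 ± 0.13 with 2 of 3 hypoxia arrays above background, and FANCG, a Fanconi core complex member, by −1.01 ± 0.17. Mismatch and excision repair gave 8 falls and 0 rises among 20, with a median of −0.26. Over all alternatives the falls ranged from 5 to 12 and the rises from 0 to 2. OGG1, the glycosylase for 8-oxoguanine, changed by −1.02 ± 0.17, UNG, the uracil glycosylase, by −0.84 ± 0.20, and XRCC1, a scaffold for strand-break repair, by −0.79 ± 0.14.

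Of 34 G2 and mitosis genes 10 were called lower (where 12.2% of all genes were), 2 higher and 22 not called, with a median of −0.21, and median scaling raised the falls to 20. The largest member change was that of CDC25A given above, followed by AURKB, the chromosomal passenger kinase, at −0.82 ± 0.14 and FOXM1, a transcription factor for mitotic genes, at −0.66 ± 0.16. Among p53 targets and CDK inhibitors 3 of 18 were called higher and 1 lower, where 9.63% of all genes were called higher and 12.2% lower. CDKN1C, the CDK inhibitor p57, rose by 1.36 ± 0.18, and CDKN2A, the locus of p16, fell by 0.61 on the log2 scale. BCL2 family genes and caspases gave 2 rises and 2 falls among 14, counts near these shares of all genes. BMF, a pro-apoptotic BH3-only protein, was the largest at 0.78 ± 0.19.

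Stress and biosynthesis programmes outside the HIF response gave more falls than rises, where 12.2% of all genes were called lower and 9.63% higher. In the list of ATF4 and integrated stress response genes 8 of 16 were called lower and 1 higher, with a median of −0.35. Its leading members make serine: PSPH changed by −0.97 ± 0.14, PHGDH by −0.58 ± 0.13 and PSAT1 by −0.57 ± 0.10. Endoplasmic reticulum chaperones gave 5 falls and 1 rise among 15, led by MANF at −0.73 ± 0.14. Heat shock proteins gave 3 falls (8 with median scaling, 1 to 8 over all alternatives) and 0 rises among 12, led by HSPA8, the constitutive HSP70, at −0.59 ± 0.11. Cholesterol and fatty acid synthesis gave 6 falls and 1 rise among 19, the rise being SCD, the stearoyl desaturase, at 0.70 ± 0.13.

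Counts of the lineage and other lists are to be read against the 21.8% of all genes called. None of 15 androgen-regulated genes was called by limma in either direction, with a median of 0.03, and 4 had an unadjusted p under 0.05. Median scaling gave 3 falls and cyclic loess 1. Of 17 epithelial and mesenchymal genes 3 were called higher (1 with median scaling), led by LGALS1, a galectin, at 0.70 ± 0.10. The others were the epithelial genes GRHL2 at 0.51 and CLDN3 at 0.38, calls lost under 1 and 4 alternatives. CAV1, a caveola protein and a marker of DU145 and PC-3, rose by 0.83 ± 0.20, a call lost under 3 alternatives, while VIM, ANXA1, AXL and CD44 were not called. Summed intensity of these 5 markers was 1281 to 1432 in hypoxia and 1078 to 1157 in normoxia, and their part in the results was not tested. Of 11 histone deacetylase genes, the family the drug acts on, 3 were called higher and 1 with median scaling. HDAC10 was the largest at 0.65 ± 0.14, from 1 normoxia and 3 hypoxia arrays above background. Neuronal and neuroendocrine genes gave 1 rise and 2 falls among 13, antioxidant and thioredoxin genes 2 of each among 17, and interferon-stimulated genes 1 of each among 21.

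**Figure D3:**
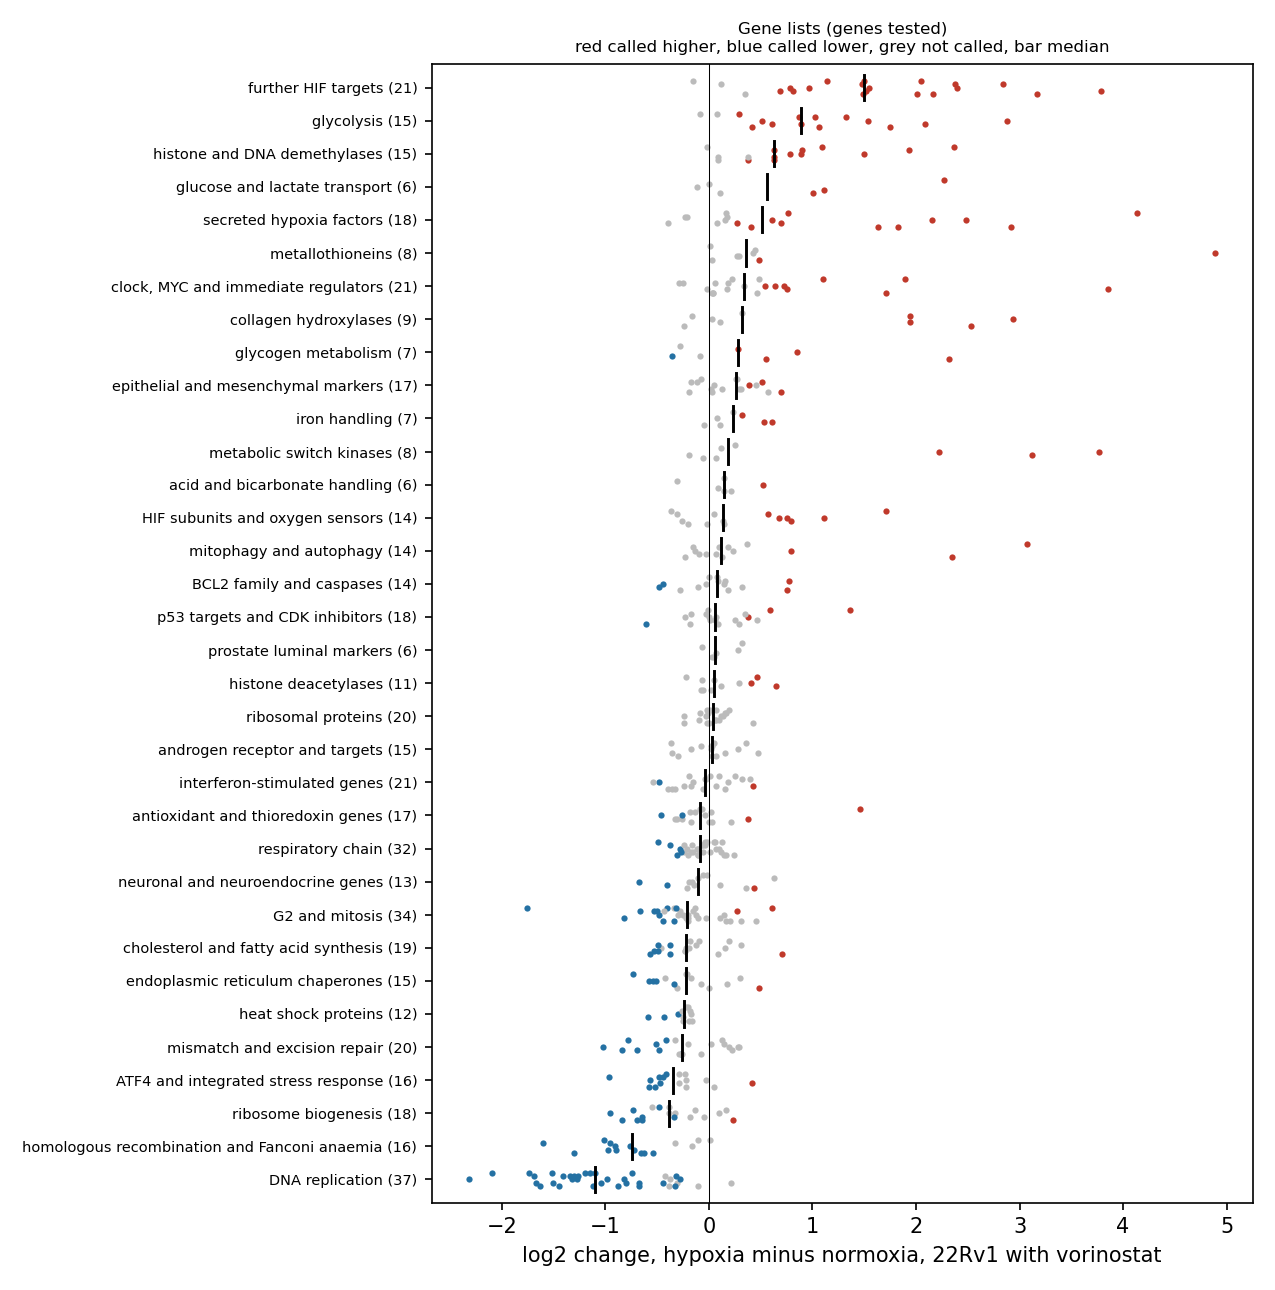
Log2 change in hypoxia with vorinostat for the members of each gene list with at least 6 tested genes (number tested in brackets), ordered by the list median (black bar). Red members were called higher, blue lower, grey were not called. HIF targets lie at the top with a median of 1.5 and DNA replication at the bottom with −1.10.

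Setting the same oxygen step beside the solvent-treated arrays shows where the drug-treated response differed. With solvent, hypoxia called 2492 genes in 22Rv1 (20.2%), 1223 higher (9.89%) and 1269 lower (10.3%). Calls in the same direction with drug and with solvent numbered 1653, which is 61.3% of the calls with drug and 66.3% of those with solvent. The opposite direction was called for 1 gene. The difference between both hypoxia effects, which uses the same drug-treated arrays as the main contrast, was tested directly and called for 90 genes (0.728%), 18 positive (0.146%) and 72 negative (0.583%). With median scaling the split was 4 positive and 68 negative, and the median difference moved from −0.01 to −0.12. Of the 72, 34 fell with drug, 27 rose in both settings but less with drug, and 11 rose with solvent and were not called with drug. Of the 18, 15 rose with drug.

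DNA replication genes were prominent among the negative differences. In this list 15 of 37 genes had a called negative difference against 0.583% of all genes, and 0 had a positive one. The list median was −1.10 with drug and −0.44 with solvent, where 22 of 37 were called lower. MCM2 showed the most negative called difference, −1.66 ± 0.23 (limma adjusted p = 1.29e-04). Its solvent arrays read 9.91, 10.12 and 10.19 in hypoxia and 10.48, 10.58 and 10.49 in normoxia. The step was −0.44 with solvent, not called, and −2.10 with drug, and all drug-treated normoxia arrays stood below the solvent ones. For MCM5 the difference was −1.39 ± 0.29, from a step of −0.93 with solvent. For GINS2 it was −1.06 ± 0.18, from −0.68, and for CDC45 −1.03 ± 0.15, from −0.60. In the list of homologous recombination and the Fanconi pathway 2 of 16 had a called negative difference, EXO1 at −0.97 ± 0.17 and XRCC3 at −0.80 ± 0.18. Of the 34 genes that fell with drug and had a negative difference, 18 were in any of the 38 lists.

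Among genes that rose less with drug, several stood higher in drug-treated normoxia. RAB31, a small GTPase of vesicle traffic, read 8.25, 8.6 and 7.97 in hypoxia and 5.89, 5.89 and 6.25 in normoxia with solvent, and 7.98, 7.78 and 7.5 against 7.10, 7.2 and 6.89 with drug. Normoxia arrays were all higher with drug, hypoxia arrays slightly lower, and the difference was −1.58 ± 0.24 (limma adjusted p = 3.50e-04). ADM read 11.37, 11.69 and 11.05 in hypoxia and 6.97, 7.07 and 6.81 in normoxia with solvent. Its hypoxia level was alike with drug, its normoxia level higher with drug, and the difference was −1.51 ± 0.25 (limma adjusted p = 6.71e-04). SNCB, beta-synuclein, was not above background in normoxia with solvent but was on all 3 normoxia arrays with drug, and its difference was −1.52 ± 0.24, a call lost under 3 alternatives. FGD5, an exchange factor for CDC42 known from endothelium, was above background only in hypoxia with solvent (6.29, 6.35 and 6.65), so its difference of −1.40 ± 0.13 compares a measured rise with drug-treated groups below background. BNIP3L had a difference of −0.96 ± 0.12 from a solvent step of 3.31.

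Called positive differences were fewer. STC1 read 7.81, 8.0 and 7.56 in hypoxia with solvent, all below the drug-treated hypoxia arrays, and had normoxia arrays at background in both settings. Its difference was 1.10 ± 0.23 (limma adjusted p = 0.0129), a call lost under 5 alternatives. UPK1A, a uroplakin of the bladder lining, rose by 2.58 with drug and 1.39 with solvent, a difference of 1.19 ± 0.24. MYOD1, a muscle transcription factor, rose by at least 1.95-fold with drug, where its normoxia arrays were at background, a difference of 1.01 ± 0.20. SI, intestinal sucrase-isomaltase, rose by at least 1.24-fold with drug from background, a difference of 0.98 ± 0.21. NDUFB1, a subunit of respiratory complex I, was not called with drug and fell by 0.61 on the log2 scale with solvent, a difference of 0.99 ± 0.22. These calls were lost under 4 alternatives each for UPK1A, MYOD1 and SI and under 8 for NDUFB1. Further HIF targets (1 of 21), glycolysis (0 of 15) and demethylases (0 of 15) had these counts of called differences, where 0.728% of all genes had one, and their solvent medians were 1.73, 1.04 and 0.61.

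**Figure D4:**
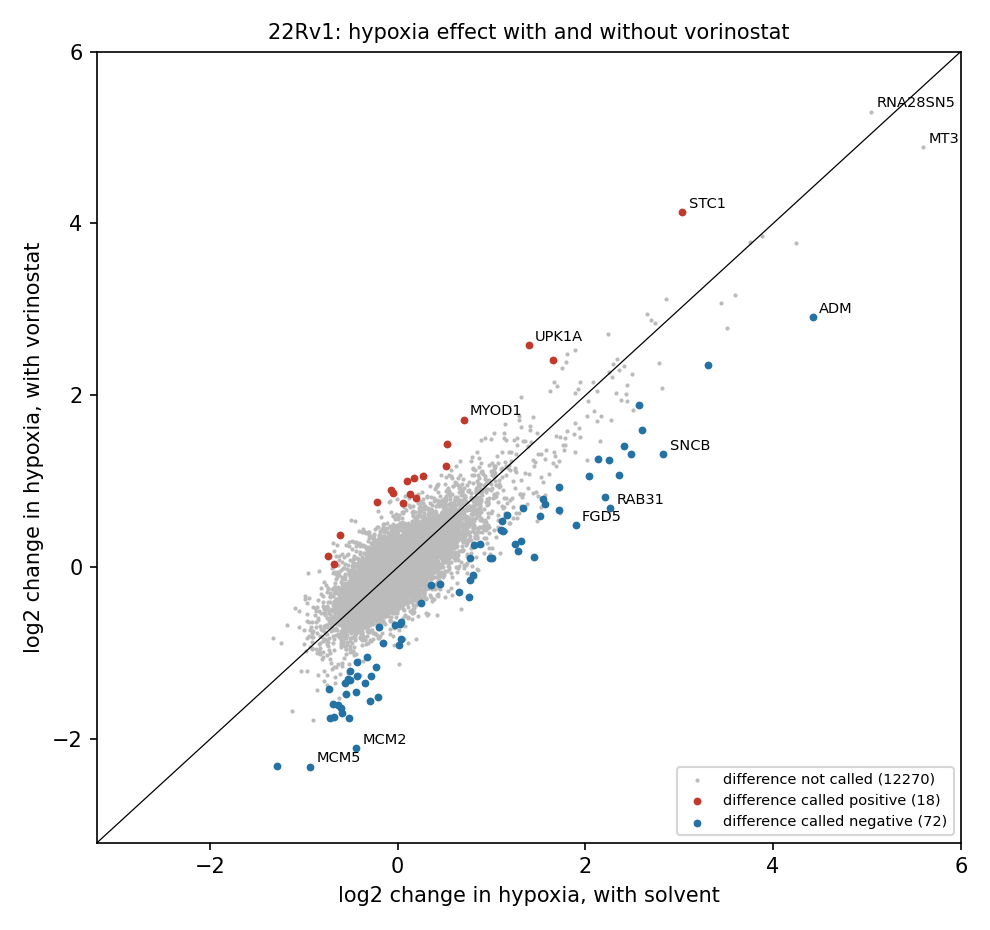
Log2 change in hypoxia with vorinostat (vertical) against that with solvent (horizontal) for 12360 genes in 22Rv1, with the line of equality. Blue points are the 72 genes with a called negative difference and red points the 18 with a positive one. Replication genes such as MCM2 and MCM5 lie below the line at the lower left.

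Hypoxia under the same drug was compared in DU145 and PC-3, which share neither cells nor arrays with 22Rv1. It called 1109 genes in DU145 (8.97%), 575 higher (4.65%) and 534 lower (4.32%). In PC-3 it called 1719 (13.9%), 844 higher (6.83%) and 875 lower (7.08%). The same direction as in 22Rv1 was called for 462 and 726 of these, and 256 genes were called in the same direction in all 3 lines, 134 higher and 122 lower. The effect, again using the same 22Rv1 arrays, differed between 22Rv1 and DU145 for 912 genes (7.38%) and between 22Rv1 and PC-3 for 714 (5.78%). In 22Rv1 it was more positive for 426 (3.45%) and more negative for 486 genes (3.93%) against DU145 (138 and 893 with median scaling), and for 335 (2.71%) and 379 (3.07%) against PC-3 (131 and 229).

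The fall of replication genes was larger in 22Rv1 than in the other lines. In the DNA replication list 27 of 37 genes had a called more negative effect in 22Rv1 than in DU145, against 3.93% of all genes, and 20 of 37 than in PC-3, against 3.07%. The list median was 0.11 in DU145 and −0.22 in PC-3. MCM2 read 8.63, 8.87 and 8.37 in hypoxia and 8.06, 8.74 and 8.25 in normoxia in drug-treated DU145. These arrays overlapped, and the difference from 22Rv1 was −2.37 ± 0.23 (limma adjusted p = 1.30e-08). CDC45 rose in DU145 by 0.55 ± 0.11 and changed by −0.22 in PC-3, which was not called. Its difference between 22Rv1 and DU145 was −2.18 ± 0.15.

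The genes with the largest called differences between lines came from several groups or from no list. Where a probe was below background in a group, a difference is that of fitted values and its size is not exact. MT3 rose by 1.49 ± 0.19 in DU145 and was at background in PC-3, with differences of 3.40 ± 0.27 and 4.89 ± 0.27 from 22Rv1. STC1 was already bright in drug-treated DU145 normoxia, at 9.79, 9.62 and 10.01, and its change there of 0.25 was not called, for a difference of 3.89 ± 0.23. In PC-3 it rose by 0.78, for a difference of 3.35 ± 0.23. BHLHE40 read 11.72, 11.56 and 11.86 in PC-3 normoxia, rose there by 0.99 and differed from 22Rv1 by 2.86 ± 0.16. BEND5, a BEN-domain protein, rose from background in 22Rv1 by at least 4.19-fold and was at background in DU145, for a difference of 2.75 ± 0.24. In the other direction IGFBP3, a binding protein for insulin-like growth factors, rose by 2.22 in DU145 and changed by 0.16 ± 0.19 in 22Rv1 (−0.034 with median scaling), where it was bright in both groups. DEPP1, a FOXO-induced protein, UCN2, a urocortin, and SCNN1G, an epithelial sodium channel subunit, rose by 3.30, 2.81 and 2.09 in PC-3 and were at background on all 6 arrays of 22Rv1. HIF1A fell by 2.63 on the log2 scale in DU145 and by 1.47 in PC-3, and the difference of 22Rv1 from each was called, at 2.26 ± 0.31 and 1.10 ± 0.31 (limma adjusted p = 6.24e-06 and 0.0280). ANKRD37 rose in every line, by 3.79 in 22Rv1, 3.57 in DU145 and 2.03 in PC-3.

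**Figure D5:**
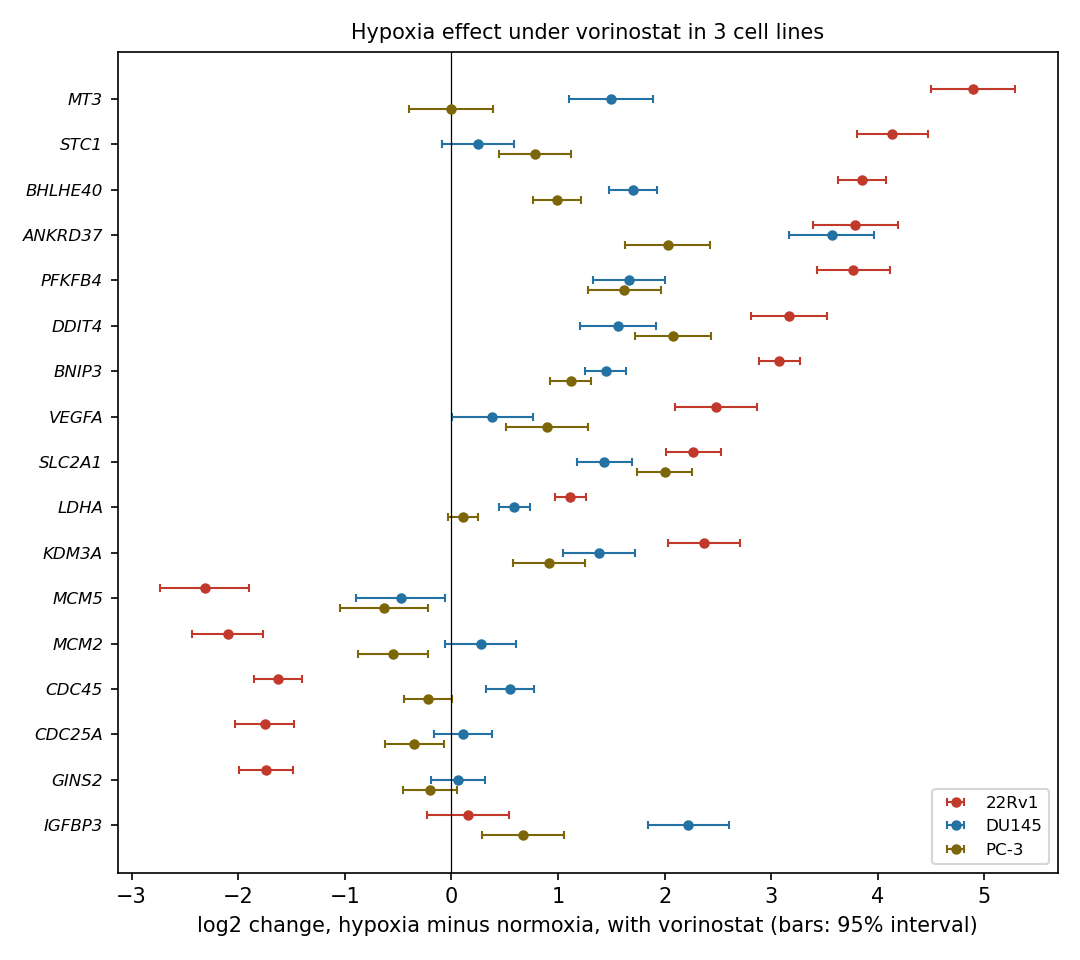
Log2 change in hypoxia with vorinostat for 17 genes in 22Rv1, DU145 and PC-3 (points) with the 95% interval from the limma fit (bars). Replication genes lie left of 0 in 22Rv1 and closer to 0 in DU145, where CDC45 lies to the right of 0. MT3, STC1 and BHLHE40 lie farthest right in 22Rv1.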

How the data were processed

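RNA was hybridised to Illumina bead arrays, and the submitters' processing notes name BeadStudio 3.1.3.0. The main analysis used the deposited average bead intensity and detection p-value of 47323 probes, per the file headers. By its values, a second deposited table holds the same intensity after quantile normalization by the authors on the linear scale. It served as an alternative. Intensities were background corrected with detection p-values and quantile normalized over 36 arrays (neqc, offset 16, limma 3.58.1, R 4.3.3). Probes with a detection p below 0.01 on at least 3 arrays were kept, named from the platform annotation, and the brightest probe stood for a gene. Of all probes 30113 had 1 symbol, 8 several and 17202 none. Of 3285 genes with several detected probes, 2 had probes called in opposite directions.

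A limma model with 12 group means (29.5 degrees of freedom after moderation) was tested over 12360 genes with Benjamini-Hochberg adjustment, called at 0.05. The code was tested on simulated data. The number of arrays limits the precision. Named genes were the 12 largest rises and the 12 largest falls without overlap, fixed genes, at most 3 called members of each list, and the largest called differences. The members and the 38 lists were chosen with earlier results of these data known. List entries without a named probe were not analysed here. Alternatives changed the normalization, background, filter, probe rule, model and arrays used.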

Additional observations from a re-analysis of the deposited data

Results flagged for a closer look

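For 24 named genes the hypoxia effect in 22Rv1 differed between vorinostat and solvent by the limma test of the difference itself. Each value is the log2 effect with drug minus that with solvent. Genes of replication and repair had MCM2 −1.66, MCM5 −1.39, DTL −1.24, MCM10 −1.10, GINS2 −1.06, CDCA7 −1.03, CDC25A −1.03, CDC45 −1.03, EXO1 −0.97, CHAF1B −0.90 and XRCC3 −0.80. Other negative differences were RAB31 −1.58, SNCB −1.52, ADM −1.51, FGD5 −1.40, BNIP3L −0.96, ISG20 −0.70 and CIART −0.68. Positive differences were UPK1A 1.19, STC1 1.10, MYOD1 1.01, NDUFB1 0.99, SI 0.98 and SLC2A3 0.90.

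The effect under the drug also differed between lines by the same kind of test. The log2 effect in 22Rv1 minus that in DU145 was MCM2 −2.37, CDC45 −2.18, IGFBP3 −2.07, STC1 3.89, MT3 3.40 and BEND5 2.75. The effect in 22Rv1 minus that in PC-3 was DEPP1 −3.53, UCN2 −2.57, SCNN1G −2.08, MT3 4.89, STC1 3.35 and BHLHE40 2.86.

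Probes without a single gene symbol stood outside the comparisons of named genes. Of 4875 such probes above background, 564 (11.6%) were called by limma for hypoxia under the drug in 22Rv1, 279 higher and 285 lower. Among all genes tested 21.8% were called, but there the brightest probe stood for each gene and adjustment ran over 12360 genes. The probes here were adjusted over all 21376 detected probes, so both shares are not directly comparable.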

How the results depend on the processing

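The number of genes called for hypoxia under the drug was 2695 and stayed within 1.5 times of that under all alternatives but array weights, which gave 4259. Array weights also gave 269 instead of 90 for drug against solvent and 1403 instead of 912 for 22Rv1 against DU145. For 22Rv1 against PC-3 the 714 calls became 1088 with the replicate block, 423 with the arrays of the comparison alone and 360 with median scaling. Leaving out each array in turn gave 1920 to 2265 calls for the main contrast, 64 to 87 for drug against solvent, 663 to 1035 against DU145 and 490 to 719 against PC-3. Median scaling moved the median of all genes from −0.02 to −0.18 and the share of higher calls from 44.2% to 15.1% in the main contrast. Between drug and solvent the share of positive calls went from 20% to 5.56%, against DU145 from 46.7% to 13.4% and against PC-3 from 46.9% to 36.4%. The cause was not tested.

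Of 134 results of named genes, 99 kept their call and direction, 31 lost a call somewhere, 2 were called only in an alternative (HIF1A and NDUFB1) and 2 reversed, neither of them called. IGFBP3 went to −0.034 with median scaling. SCNN1G went to −0.028 with median scaling and lay between −0.076 and 0.088 when each array was left out in turn, turning negative without normoxia vorinostat replicate 1 (−0.037) or hypoxia vorinostat replicate 3. DNA replication had 27 to 35 members called lower over the alternatives and further HIF targets 16 to 19 called higher. Replicate numbers shared by the groups are not said to pair arrays, and deviations of same-numbered arrays in the drug-treated 22Rv1 groups correlated at 0.11, 0.02 and 0.10. As a hint from the data, each hypoxia array correlated best with its own number. The replicate block gave 3279 calls for the main contrast, 122 for drug against solvent and 1358 against DU145. A chip block was not run because the file headers used here name no chip. For genes below background in a group, only a bound on the fold can be given. Differences that involve such a group carry no exact size.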

Other observations

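Several genes outside the lists, chosen after their values were seen, also rose less with hypoxia under the drug. HLA-B, a class I antigen-presenting molecule, read 7.60, 7.55 and 7.17 in hypoxia and 5.26, 5.67 and 5.27 in normoxia with solvent. With drug it read 9.02, 9.04 and 9.09 in hypoxia and 8.11, 7.91 and 7.93 in normoxia, so that drug-treated normoxia stood above solvent hypoxia. The step was 1.07 with drug and 2.04 with solvent, a difference of −0.97 (limma adjusted p = 0.0161). HLA-E, a further class I molecule, had steps of 0.11 and 0.98 and a difference of −0.87 (limma adjusted p = 0.00156). HLA-H, a class I pseudogene, had steps of 1.60 and 2.61 and a difference of −1.01 (limma adjusted p = 0.00854). Class I genes are close paralogues, so their probes can share signal. CAVIN1, a coat protein of caveolae, had steps of 1.08 with drug and 2.36 with solvent, a difference of −1.28 (limma adjusted p = 6.60e-07).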
